A study of Anolis carolinensis with 2 samples.

Results

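The deposited tables held 2 gene models on the contig AAWZ02037236 of the green anole assembly, out of 21085 genes. They were found by contig name, and the contig had been selected on its high FPKM (fragments per kilobase of transcript, scaled to the mapped fragments), so abundance is given here as a description and not as a finding. The RNA came from 2 whole embryos of Anolis carolinensis, a lizard, collected at 0 to 1 days after laying. Somites, paired mesoderm segments that give rise to vertebrae and trunk muscle, are counted to stage embryos. The embryos were of 38 and 28 somite pairs, with 1 library each, so embryo, library and stage cannot be told apart and no p-value was computed. The labels name no strain, sex, genotype or treatment. In whole embryos, fewer cells of a type and less RNA per cell cannot be told apart either.

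A vertebrate mitochondrial genome is a small circle that encodes ribosomal RNAs, transfer RNAs and a few core subunits of the respiratory chain. Both strands are transcribed into long RNAs, which are then cut at the transfer RNAs that lie between most genes. Cytochrome c oxidase subunit 1 forms the catalytic core of complex IV. ND6, a membrane subunit of complex I, is the one protein gene read from the strand opposite to the others.

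The longer model, ENSACAG00000024775, lay at 9286 to 10821 on AnoCar2.0 and was annotated as 1 exon with a length of 512 codons. The shorter model, ENSACAG00000008792, lay at 2089 to 2610 and was 1 exon of 174 codons. The models were linked to cytochrome c oxidase subunit 1 and to ND6 by their lengths and their spacing, and 6675 bases separated them. The spacing was not compared with a mitochondrial genome here. Length alone is a weak guide for the shorter model. The tables held 20 transcripts with exactly the length of the longer model, of which 1 was single-exon, and 25 with that of the shorter model, of which 4 were single-exon. The other 3 single-exon models of the shorter length were listed at 0 FPKM in both libraries. No identifier of the 21085 genes matched the reference table of gene names, these 2 included. That table also held 0 genes on a mitochondrial sequence. The mitochondrial label was therefore not tested here, and the models are called the longer and the shorter one. The files give no strand, so RNA from the 2 strands of the contig cannot be told apart.

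Mapped totals, inferred from the deposited FPKM as described under processing, were similar. They were 12908646 fragments for the library at 38 somite pairs and 13859436 for the one at 28. Fragments within listed transcripts made up 43.4% at 38 somite pairs (Wilson 95% interval 43.4 to 43.4) and 52.1% at 28 (52.0 to 52.1). This gap bears on every level below, provided that all mapped fragments entered the scaling of FPKM. Intervals here cover counting error only.

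Both models were among the most abundant in each embryo. The longer model had 24453 FPKM at 38 somite pairs and 27179 FPKM at 28, and it ranked first of all genes in both libraries. The shorter model had 4123 FPKM at 38 somite pairs, where its rank was 3, and 4982 FPKM at 28, where its rank was 2. At 38 somite pairs a spliced transcript of 135 bases on chromosome 3 lay above it, at 5488 FPKM, against 4143 FPKM at 28. That transcript held only 2364 fragments at 38 somite pairs and 1926 at 28, so its FPKM rested on a short length. By fragments it lay well below the shorter model, which held 29966 and 38770. The longer model was 4.46 times that transcript, the highest gene outside the contig, at 38 somite pairs and 6.56 times at 28. It equalled 91.4% of the summed FPKM of the 10 highest genes outside the contig at 38 somite pairs and 101.7% at 28. Transcripts on the other 965 contigs whose names begin with AAWZ were lower. Their highest level was 1591 FPKM at 38 somite pairs and 1476 FPKM at 28, and their median was listed at 0 in both libraries.

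**Figure D1:**
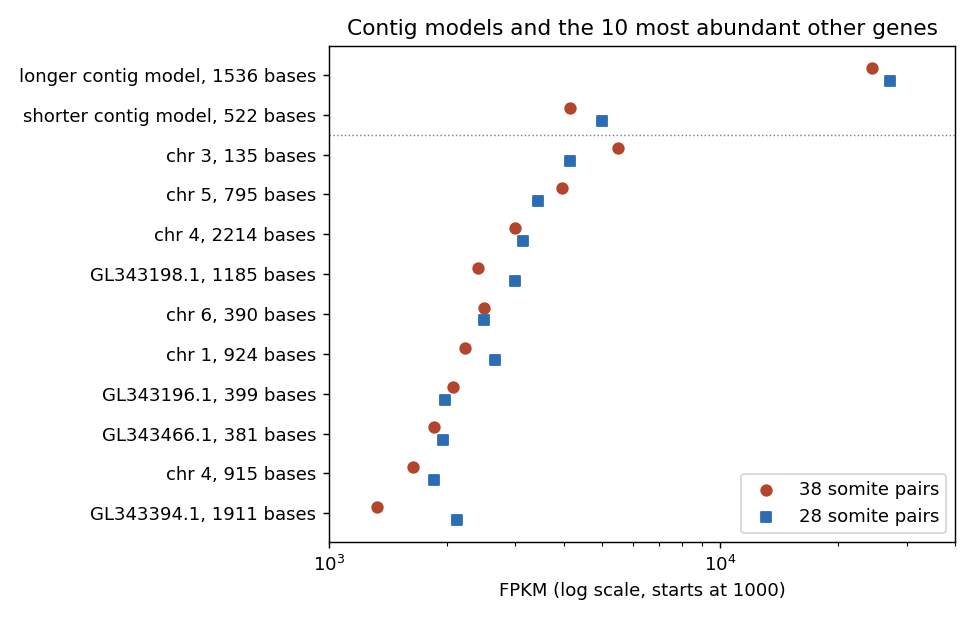
FPKM (log axis) of the 2 contig models, above the dotted line, and of the 10 genes outside the contig with the highest mean FPKM, each named by chromosome or scaffold and transcript length. Circles are the library at 38 somite pairs and squares the one at 28. The longer model stands at 24453 and 27179 FPKM, apart from all others, while the shorter model, at 4123 and 4982 FPKM, lies among the next most abundant genes.

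In fragments the difference between the models was wider than in FPKM. The longer model held 402868 fragments at 38 somite pairs (exact Poisson 95% interval 401625 to 404114) and 477726 at 28 (476372 to 479083). The shorter model held 29966 fragments at 38 somite pairs (29628 to 30307) and 38770 at 28 (38385 to 39158). The longer model ranked first by fragments in both libraries and the shorter one had rank 5. The transcript with the most fragments outside the contig was one of 2214 bases, with 87947 at 38 somite pairs and 98351 at 28. The longer model took 93.1% of the contig's listed fragments at 38 somite pairs and 92.5% at 28.

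The share of fragments that fell in the 2 models depended on what it was divided by. Of all mapped fragments, they took 3.35% at 38 somite pairs (Wilson 95% interval 3.34 to 3.36) and 3.73% at 28 (3.72 to 3.74). Of the fragments within listed transcripts they took 7.72% at 38 somite pairs (7.70 to 7.75) and 7.16% at 28 (7.14 to 7.18). The order of the stages was therefore opposite under these denominators. As a share of the summed FPKM of all genes, the models took 7.65% at 38 somite pairs and 7.80% at 28. Fragments elsewhere on the contig were not analysed here.

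The longer model alone took 3.12% of mapped fragments at 38 somite pairs (3.11 to 3.13) and 3.45% at 28 (3.44 to 3.46). Within listed transcripts it took 7.19% at 38 somite pairs (7.17 to 7.21) and 6.62% at 28 (6.60 to 6.64). For the shorter model the share of mapped fragments was 0.232% at 38 somite pairs (0.230 to 0.235) and 0.280% at 28 (0.277 to 0.283). Its share within listed transcripts was 0.535% at 38 somite pairs (0.529 to 0.541) and 0.537% at 28 (0.532 to 0.543), so the intervals overlapped.

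**Figure D2:**
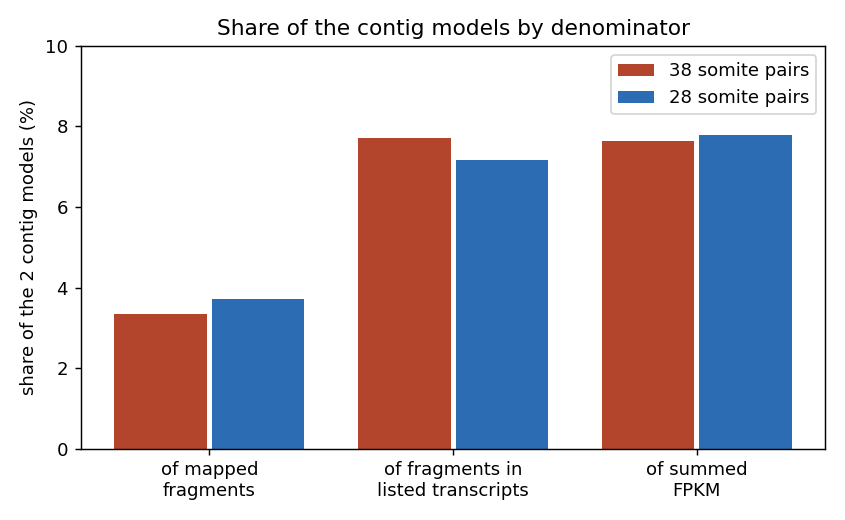
Share of the 2 contig models together, in percent, at 38 (left bars) and 28 somite pairs (right bars), of mapped fragments, of fragments in listed transcripts and of summed FPKM. The share is lower at 38 somite pairs among mapped fragments (3.35% against 3.73%) and higher among listed fragments (7.72% against 7.16%).

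The ratio between the stages was computed per mapped fragment, as 38 over 28 somite pairs. It was 0.905 for the longer model (exact 95% interval 0.902 to 0.909) and 0.830 for the shorter model (0.817 to 0.842). Per fragment in listed transcripts it was 1.09 (1.08 to 1.09) for the longer model and 0.995 (0.981 to 1.01) for the shorter one. With the median ratio of 4580 well-covered loci outside the contig (1 transcript, 100 or more fragments at each stage) set to 1, it was 1.05 (1.05 to 1.06) for the longer model and 0.963 (0.949 to 0.978) for the shorter one. Most of those loci, 4405, were spliced. Relative to the median of the 175 single-exon ones, the log2 ratio, 38 minus 28, was -0.10 for the longer model and -0.22 for the shorter one. Relative to the median of the 32 loci with 10000 fragments or more at each stage, it was 0.21 for the longer model and 0.09 for the shorter one. The stage at which either model was higher thus turned with the scaling or reference.

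**Figure D3:**
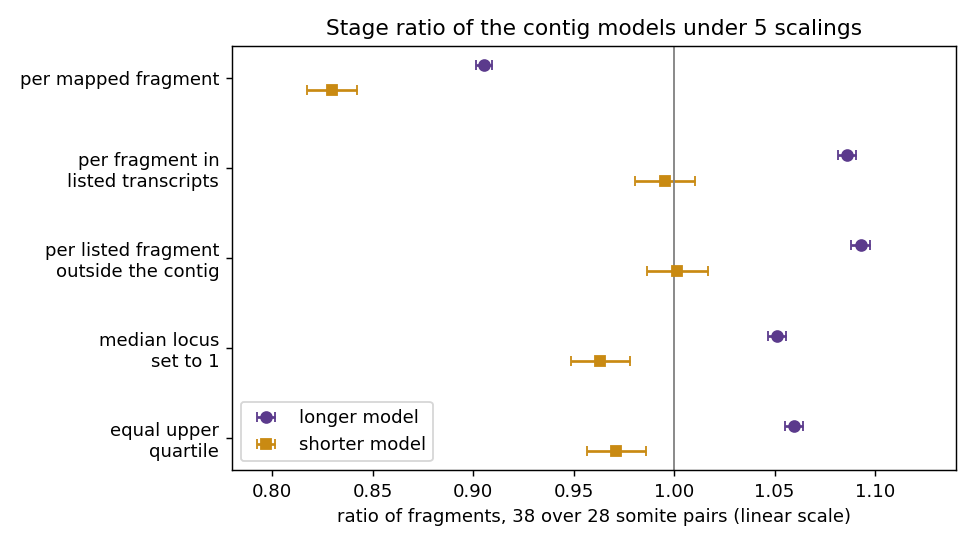
Ratio of fragments at 38 over 28 somite pairs for the longer model (circles) and the shorter model (squares) under 5 scalings, with exact 95% counting intervals and a line at 1. Per mapped fragment both models lie below 1, at 0.905 and 0.830, while under the other scalings the longer model lies above 1 and the shorter model between 0.963 and 1.00.

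Beside other genes, both models lay near the middle in their difference between stages. The difference in log2(FPKM + 1), 38 minus 28 somite pairs, was -0.15 for the longer model and -0.27 for the shorter model, and the median of 10781 expressed genes outside the contig was -0.18. Neither model differed by 2-fold, where 8.58% of the 10783 expressed genes were at least 2-fold higher at 38 somite pairs (925 genes) and 9.2% at 28 (992 genes). These background counts depended on the processing. They were 1207 at 38 somite pairs and 783 at 28 with the median locus set to 1, which changed the stage with more genes. With an FPKM of 1 or more in both libraries they were 261 at 38 and 418 at 28. That filter tests fewer genes, and the share of those was not computed. Both contig models were lower at 38 in FPKM, as were 62.4% of expressed genes. On fragments per mapped fragment, the log2 ratio was -0.14 for the longer model and -0.27 for the shorter one. The median of the 4580 well-covered loci was -0.22, with quartiles at -0.51 and 0.07, and 69.9% were lower at 38. The longer model lay at percentile 56.6 of these loci and the shorter one at 45.2.

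Both models also lay inside the quartiles of the deepest loci and of single-exon loci. Of the 4580 loci, 32 had 10000 fragments or more at each stage, and their log2 ratios had a median of -0.36 and quartiles at -0.54 and -0.10. The longer model lay at percentile 65.6 of them and the shorter one at 62.5. None of them was as deep as the longer model. It held 4.58 times the fragments of the deepest of all transcripts outside the contig at 38 somite pairs and 4.86 times at 28. The 175 single-exon loci among the 4580 had a median of -0.05, with quartiles at -0.28 and 0.20, and there the models lay at percentiles 41.1 and 28.6. The 10 most abundant genes outside the contig had ratios of FPKM between 0.627 and 1.32, 38 over 28, against 0.900 for the longer model and 0.828 for the shorter model. For the 10 most abundant single-exon genes outside the contig these ratios lay between 0.727 and 1.62. Loci are not replicates, so these spreads describe the 2 libraries only.

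**Figure D4:**
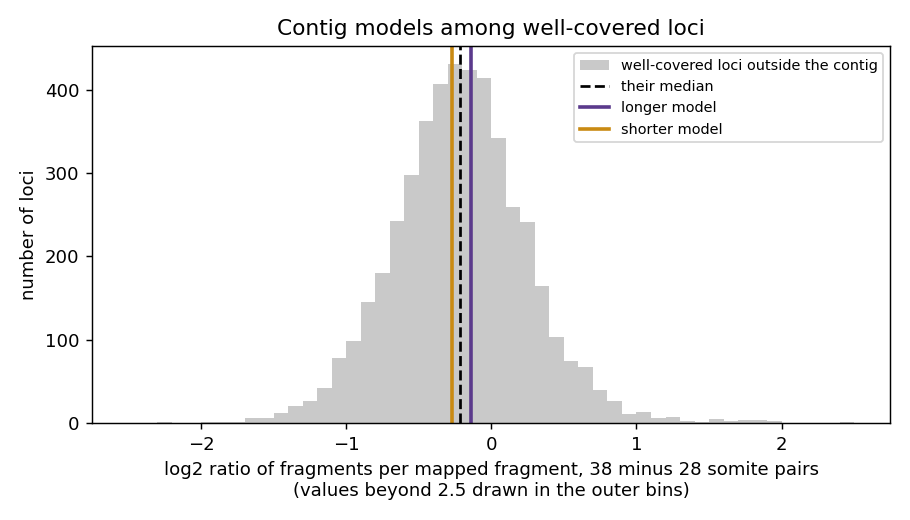
Number of loci by log2 ratio of fragments per mapped fragment, 38 minus 28 somite pairs, for 4580 well-covered loci outside the contig (grey), with their median (dashed line, -0.22). The longer model (-0.14) and the shorter model (-0.27) lie on either side of the median, inside the quartiles.

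The level of one model over the other does not depend on the scaling between libraries. In FPKM the longer model was 5.93 times the shorter model at 38 somite pairs (exact 95% interval 5.86 to 6.0) and 5.46 times at 28 (5.40 to 5.51). In fragments it was 13.4 times (13.3 to 13.6) at 38 somite pairs and 12.3 times (12.2 to 12.5) at 28. The fragment ratio was thus 1.09 times as high at 38 somite pairs as at 28 (1.07 to 1.11, normal approximation on the log scale). This gap is larger than the counting error of independent fragments, which amplified fragments are not. Between the 496 pairs of the 32 deepest loci outside the contig, the median gap was 1.23-fold, and 22.0% of the pairs had a smaller gap than the models.

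How much the models differed per base rested on the effective length, the length by which the authors' FPKM were divided. For the shorter model it was longer than the annotation, at 563.0 bases at 38 somite pairs and 561.5 at 28. For the longer model it was shorter, at 1276 bases at 38 somite pairs and 1268 at 28. Effective over annotated length was 1.08 at both stages for the shorter model. It was 0.831 at 38 somite pairs and 0.826 at 28 for the longer one. Among 343 well-covered loci within 20% of the length of the shorter model, 14 had a higher value at 38 somite pairs and 13 at 28. None of the 9 single-exon loci among them had a value above 1 in either library. Among 979 loci within 20% of the length of the longer model, 884 had a higher value at 38 somite pairs and 895 at 28. Per annotated length, the longer model was 4.57 times the shorter model at 38 somite pairs and 4.19 times at 28, below the values in FPKM. On that scale the shorter model had rank 2 of all transcripts in both libraries, with 4447 fragments per annotated kilobase, scaled like FPKM, at 38 somite pairs and 5359 at 28. The longer model had 20318 at 38 somite pairs and 22441 at 28.

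**Figure D5:**
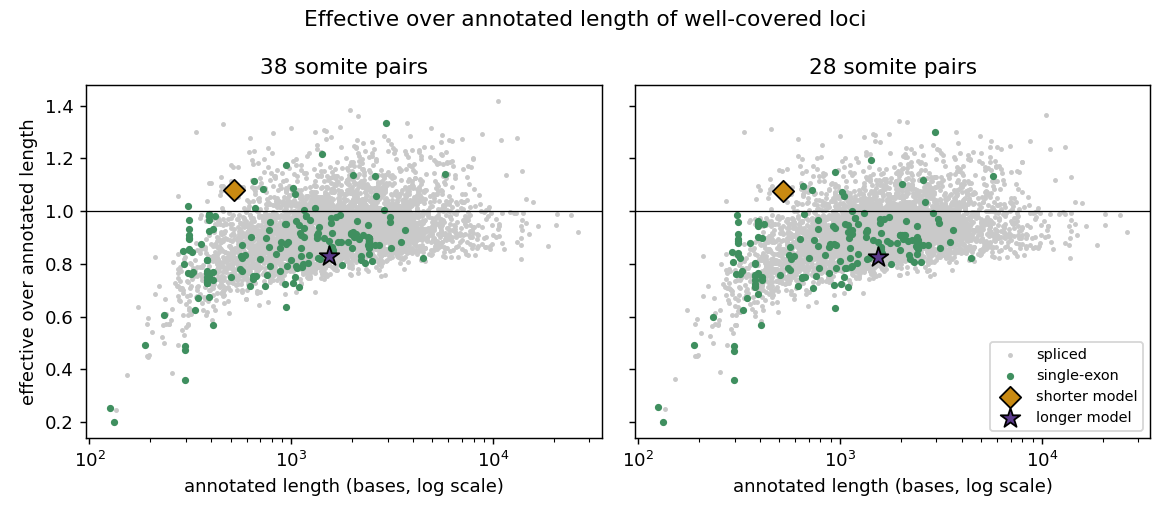
Effective over annotated length (linear axis) against annotated length (log axis) for loci with at least 100 fragments in both libraries, at 38 (left) and 28 somite pairs (right), with a line at 1. The shorter model (diamond) lies at 1.08 in both libraries, above most loci of its length, and the longer model (star) lies at 0.831 and 0.826, below most loci of its length.

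The coverage column gave the same order of models. Coverage was read here as the depth of aligned reads per base of effective length, not of annotated length. It was 53349 at 38 somite pairs and 63573 at 28 for the longer model. It was 6802 at 38 somite pairs and 8790 at 28 for the shorter model. These depths are not scaled to library size. Divided by fragments per base of effective length, coverage gave the aligned bases per fragment, which ranged from 104 to 208 over all transcripts in both libraries. A fragment with 1 aligned read of 104 bases would give the lower end, and a pair of such reads the upper end. The labels do not give the read length.

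Aligned bases per fragment differed between the models and barely between the stages. The longer model had 169.0 bases per fragment at 38 somite pairs and 168.8 at 28. The shorter model had 127.8 at 38 somite pairs and 127.3 at 28. Single-exon loci of like length differed in the same direction but by less. The 23 near the length of the longer model had a median of 165.3 at 38 somite pairs and 160.7 at 28. The 9 near the length of the shorter one had a median of 136.4 at 38 somite pairs and 142.1 at 28, and 7 of the 9 at 38 and 8 at 28 were above the shorter model. Spliced loci near the longer length had a median of 145.7 at 38 somite pairs and 148.4 at 28, and those near the shorter length 125.3 at 38 and 125.9 at 28. These differences were not tested. The single-exon loci were far shallower than the models, with at most 1123 fragments at 38 somite pairs and 1482 at 28 for the longer length, and at most 762 at 38 and 495 at 28 for the shorter.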

How the data were processed

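RNA from 2 whole embryos was sequenced, with 1 library per stage. Per the labels' protocols, total RNA was used with a NuGEN Ovation kit. The series description states that the alignment to AnoCar2.0 used TopHat, without trimming. The submitters' processing notes also list Cufflinks. The version of either tool is not given in the sources used here. The deposited tables give FPKM with bounds per gene and transcript, and per transcript a coverage signal, 2 fraction columns (not used) and annotated and effective lengths, per the file headers. The deposited upper bound lies 2 square roots of the FPKM above it for 99.7% of genes, so the bounds were not used.

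Fragments were recovered from the deposited FPKM times effective length. Among loci with 1 transcript and under 100 fragments, this product was a whole multiple of one unit for 92.6% of 5065 in the library at 38 somite pairs and for 93.1% of 4567 in that at 28 (tolerance 0.02 fragments). Another 3.04% and 2.78% lay midway between whole numbers. The unit gives the mapped total, if FPKM were scaled to mapped fragments. Whole multiples of that total would fit the steps as well, and the smallest fitting total was taken. Fragment counts, counting intervals and aligned bases per fragment rest on this choice. Rounding of the deposited values leaves up to 2.76 fragments of error per contig model. Of those loci with 1 transcript and under 100 fragments, 119 at 38 somite pairs and 121 at 28 held under 10. A locus listed at 0 has no recoverable count, so how many of them held a few fragments is not known. Expressed means an FPKM of at least 1 in a library, and the pseudocount was 1 FPKM. Single-exon models are those whose span equals their length. Ratios have exact Clopper-Pearson intervals. Amplified fragments are not independent molecules.

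The models were chosen with earlier results of these data known. All models on the contig were named, beside the 10 most abundant other genes and the 10 most abundant other single-exon genes. No sequence is printed, since no genome of this build was used here. Lists of nuclear respiratory chain genes could not be applied, since 0 of 21085 identifiers matched the reference table (rAnoCar3.1). Scaling, pseudocount, filter and source column were varied. The steps were tested on simulated whole counts scaled to a known total. That simulation cannot test how the deposited FPKM were scaled. Computation used scipy 1.17.1, numpy 2.4.6 and pandas 2.3.3 under Python 3.11.15, and figures matplotlib 3.10.9.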

Additional observations from a re-analysis of the deposited data

How the results depend on the processing

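With 1 embryo per stage, no paired analysis was possible. Of 41 alternative values, 14 stayed within the counting interval, or for counts of genes within 1.5 times, 18 moved beyond it and 9 turned direction. Many of the 14 were fixed by construction. The turned values are not separate results, since both models together are mostly the longer model. The shorter model turned only at 1.00 (0.987 to 1.02), an interval that holds 1. The contig's share was 3.35% of the mapped fragments at 38 somite pairs and 3.73% at 28. It became 7.72% and 7.16% of listed fragments, 9.48% and 8.72% of coverage times annotated length, and 7.65% and 7.80% of summed FPKM. The first changes the denominator only, and the others also how the contig's signal is counted. Coverage is per base of effective length, so its product with annotated length is no count of aligned bases. The ratio of both models together, 38 over 28, was 0.900 per mapped fragment, 1.08 per listed fragment, 1.09 per listed fragment outside the contig, 1.04 with the median locus at 1 and 1.05 with equal upper quartiles. For the longer model these ratios were 0.905, 1.09, 1.09, 1.05 and 1.06, and 0.901 by coverage. For the shorter model they were 0.830, 0.995, 1.00 (0.987 to 1.02), 0.963 and 0.971. The scalings differ by a constant factor, so they move both models alike. The level of the longer over the shorter model, 5.93 at 38 somite pairs and 5.46 at 28 in FPKM, was 7.84 and 7.23 by coverage and 4.57 and 4.19 per annotated length. Log2 differences stayed at -0.15 and -0.27 with pseudocounts of 0.1 and 5 FPKM and from the transcript table. They had to, since these pseudocounts are small beside 4123 FPKM or more and each model has 1 transcript with the same FPKM. By the 2-fold rule, 925 genes were higher at 38 somite pairs and 992 at 28, but 147 and 194 with a pseudocount of 5 FPKM. They were 1207 and 783 with the median locus at 1. With 1 FPKM or more in both libraries, which tests fewer genes, they were 261 and 418. Without a filter 925 and 992 could not change, as a 2-fold call in FPKM + 1 needs 1 FPKM or more. Where no construction is named, the cause was not tested. Depth does not limit the contig models, but 1 library per stage does.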
